A study of Mus musculus with 6 samples.

Results

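The chitinase and chitinase-like genes Chil1, Chil3, Chil4 and Chit1 were described in mouse leukemia cells given an IKK inhibitor or vehicle. The probe sets were taken by annotation to these symbols, which gave 4 genes with 1 probe set each, of 19938 genes with a symbol. The genes were selected on their inhibitor and vehicle intensities on these same arrays, so their differences are described here and not tested. The cells are a line that carries MLL-AF10, a fusion of the histone methyltransferase MLL with AF10, and were grown in RPMI with serum and WEHI conditioned medium, a source of interleukin-3. RNA came from 3 samples of MLL-AF10 cells given 0.5 µM of an IKK inhibitor and from 3 samples of MLL-AF10 cells given vehicle, and was read on 6 whole-transcript arrays. Which compound was used, for how long, and whether the samples of a group were separate cultures is not stated in the labels. The spread between them may therefore be technical.

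Chitinases cut chitin, a polymer of N-acetylglucosamine that mammals do not make but meet in fungi, insects and parasites. Chit1 encodes chitotriosidase, an active chitinase best known from human macrophages. The chitinase-like proteins keep the fold of the enzyme and lack the residue needed for cleavage, so they bind sugars without cutting them. Chil1 encodes BRP-39, the mouse counterpart of human YKL-40. Chil3 and Chil4 encode Ym1 and Ym2, a pair of closely related mouse proteins without a human counterpart. Ym1 is widely measured as a marker of alternatively activated macrophages, and is also made by neutrophil precursors.

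Chil1 and Chit1 are neighbouring protein-coding genes on chromosome 1, as are Chil3 and Chil4 on chromosome 3. The 250 bases before the start of each gene, from RefSeq on GRCm38.p6, are shown because 2 of the genes that were higher have closely similar promoters and because the genes differ in the motifs they hold. Capitals mark matches to 7 motifs searched on both strands, whose letters were settled after the windows had been read.
Chil3: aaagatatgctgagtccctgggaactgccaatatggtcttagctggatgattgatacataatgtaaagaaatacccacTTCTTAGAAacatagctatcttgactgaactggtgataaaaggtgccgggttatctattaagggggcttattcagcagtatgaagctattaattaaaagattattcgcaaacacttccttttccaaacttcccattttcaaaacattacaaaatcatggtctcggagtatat
Chil4: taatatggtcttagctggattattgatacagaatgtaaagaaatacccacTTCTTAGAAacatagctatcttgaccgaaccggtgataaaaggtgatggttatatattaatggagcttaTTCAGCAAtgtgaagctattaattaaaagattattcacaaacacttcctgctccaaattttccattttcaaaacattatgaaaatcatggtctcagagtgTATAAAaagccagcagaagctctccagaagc
Chil1: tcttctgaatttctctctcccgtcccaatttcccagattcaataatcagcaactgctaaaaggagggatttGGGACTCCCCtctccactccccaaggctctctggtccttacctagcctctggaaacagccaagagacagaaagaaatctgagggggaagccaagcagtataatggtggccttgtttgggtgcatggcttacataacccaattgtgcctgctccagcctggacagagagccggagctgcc
Chit1: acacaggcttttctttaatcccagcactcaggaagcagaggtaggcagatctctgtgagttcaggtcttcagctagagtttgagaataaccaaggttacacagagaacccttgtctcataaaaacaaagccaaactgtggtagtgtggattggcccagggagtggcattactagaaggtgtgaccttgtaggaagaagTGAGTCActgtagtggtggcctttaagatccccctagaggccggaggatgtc

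These windows are chr3:106167565-106167814 on the minus strand for Chil3, chr3:106219480-106219729 on the minus strand for Chil4, chr1:134181906-134182155 on the plus strand for Chil1 and chr1:134110992-134111241 on the plus strand for Chit1. When the Chil3 and Chil4 windows were aligned with free ends, 201 of 223 aligned columns (90.13%) were identical, 20 held a substitution and 2 a gap. The longest run shared by Chil3 and Chil4 was 44 bases, against 10 bases for Chil1 and Chit1. The copies share the match TTCTTAGAA to the STAT motif TTCNNNGAA, 172 to 164 bases before the start of Chil3 and 200 to 192 bases before that of Chil4. Of 32851 promoter windows of this length, 7.02% hold that motif.

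Other matches were not shared between genes. Chil4 alone held a TATA box, TATAAA, 31 to 26 bases before its start (12.37% of windows), and TTCAGCAA, a match on the other strand to the C/EBP motif TTGCNNAA (9.56%). The Chil3 window ends within the stretch that holds the TATA box in Chil4. In Chil1 the match GGGACTCCCC to the NF-kB consensus lay 179 to 170 bases before the start, a motif held by 3.90% of windows. Chit1 held TGAGTCA, a match to the AP-1 motif TGANTCA (6.75%). The PU.1 motif GAGGAA (23.25%) and the MiT/TFE-type motif CANGTG (39.51%) had no match in any of the 4 windows. None of the matches overlapped another. A match describes letters, and no binding was measured. The motif letters were settled after these windows had been read, so nothing is read from the shares of windows.

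The chitinase-like genes Chil1, Chil3 and Chil4 were each higher with the IKK inhibitor, and the chitinase gene Chit1 overlapped between the groups. Chil1 was 3.37-fold, Chil4 2.45-fold and Chil3 1.88-fold higher in mean intensity, while the means of Chit1 lay within its spread between replicates. The arrays of the groups did not overlap for 3 of the 4 genes. Among all 19847 genes tested the groups did not overlap for 32.9% in either direction, and all 3 inhibitor arrays lay above all 3 vehicle arrays for 15.7%. The choice of the genes used this contrast, so nothing is read from that count.

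Chil1 showed the largest difference of the 4. Its intensities were 854, 929 and 856 on the inhibitor arrays, against 248, 260 and 276 on the vehicle arrays. Each inhibitor array was above each vehicle array, and the replicates of a group lay close together. The mean was 880 ± 42.5 with the inhibitor and 261 ± 14.1 with vehicle (SD, n = 3 each). The log2 fold change was 1.75 ± 0.06 (SE of the limma fit). Ordered by log2 fold change, Chil1 stood at place 28 of the 19847 genes.

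Chil3, the gene of Ym1, had intensities of 1465, 1380 and 1532 on the inhibitor arrays, against 764, 766 and 800 on the vehicle arrays. The groups were again apart, with the lowest inhibitor array 0.79 above the highest vehicle array on the log2 scale. Its mean was 1459 ± 76.3 with the inhibitor and 777 ± 20.1 with vehicle (SD, n = 3 each), and the log2 fold change was 0.91 ± 0.06 (SE). This was the smallest difference of the 3 chitinase-like genes, at place 157.

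Chil4, the gene of Ym2, had intensities of 313, 262 and 331 on the inhibitor arrays, against 123, 114 and 132 on the vehicle arrays. The groups did not overlap, although Chil4 varied most of the 4 genes within a group. Its coefficient of variation was 11.9% with the inhibitor and 7.55% with vehicle, against 5.23% and 2.59% for Chil3. The mean was 302 ± 35.8 with the inhibitor and 123 ± 9.29 with vehicle (SD, n = 3 each), and the log2 fold change was 1.29 ± 0.10 (SE), at place 71.

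Chil3 and Chil4 are close copies, so how far each probe set reads the other's transcript is not known and both values are uncertain. The intensity of Chil4 divided by that of Chil3 on the same array was 0.190 to 0.216 with the inhibitor and 0.148 to 0.165 with vehicle. The probe sets therefore did not change in proportion. Both were lowest on inhibitor replicate 2 and highest on inhibitor replicate 3 among the inhibitor arrays, while Chil1 was highest on inhibitor replicate 2. The intensity of Chil1 divided by that of Chil3 was 0.559 to 0.673 with the inhibitor and 0.325 to 0.345 with vehicle.

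Chit1, the gene of the active enzyme chitotriosidase, had intensities of 77.3, 67.9 and 74.3 on the inhibitor arrays, against 73.0, 76.0 and 69.6 on the vehicle arrays. The groups overlapped, and inhibitor replicate 2 was the lowest of the 6 arrays. Its mean was 73.2 ± 4.77 with the inhibitor and 72.9 ± 3.21 with vehicle (SD, n = 3 each). The log2 fold change was 0.0049 with a 95% interval from -0.15 to 0.16. These values lie below the array medians of 112 to 124 and the table holds no detection calls, so whether Chit1 was above background is not known.

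**Figure D1:**
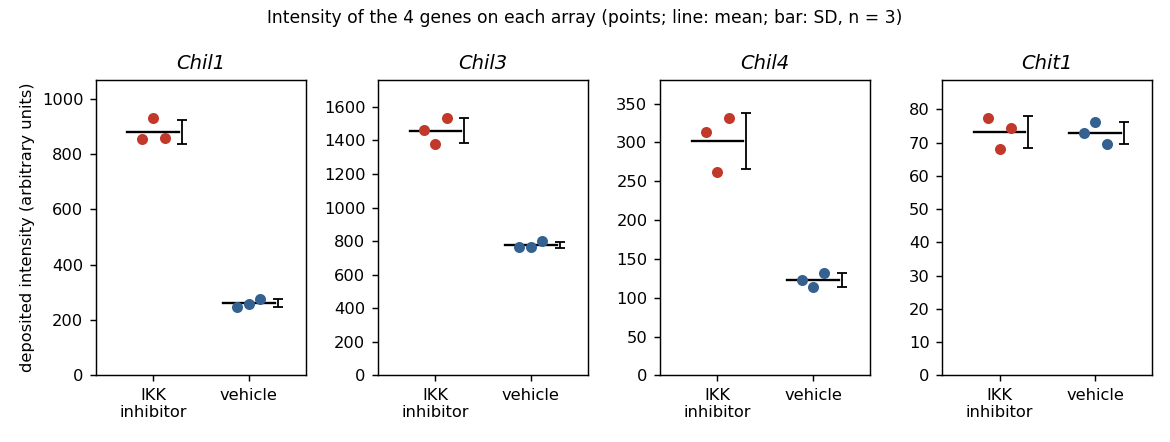
Deposited intensity (arbitrary units, from 0) of Chil1, Chil3, Chil4 and Chit1 on the 3 IKK inhibitor arrays (red) and the 3 vehicle arrays (blue), with the mean as a line and the SD as a bar. The inhibitor arrays of Chil1 (854 to 929), Chil3 (1380 to 1532) and Chil4 (262 to 331) lie above all vehicle arrays of the same gene, and those of Chit1 overlap with vehicle.

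The cells expressed markers of the myeloid lineage, which moved in both directions with the inhibitor. Of 7 leukocyte and myeloid markers, 5 were higher and 1, Mpo, was lower by limma, against 7.1% of all genes called higher and 6.75% called lower. Ptprc passed narrowly (log2 fold change 0.19, limma adjusted p = 0.0488), and these marker calls were not followed under the alternative settings. The summed intensity of the 7 markers was 17452 to 17965 on the inhibitor arrays and 13195 to 13667 on the vehicle arrays. Mpo, the gene of myeloperoxidase in granulocyte and monocyte progenitors, moved most of the 7 and against that sum. It averaged 124 ± 11.2 with the inhibitor and 762 ± 32.1 with vehicle (SD, n = 3 each), and its log2 fold change was -2.62 ± 0.08 (SE). Csf1r, the receptor gene for macrophage colony-stimulating factor, averaged 2024 ± 69.6 with the inhibitor and 862 ± 20.1 with vehicle (SD, n = 3 each), and its log2 fold change was 1.23 ± 0.05 (SE). Whether the chitinase-like genes moved with more cells of a monocytic kind or with more RNA per cell cannot be told apart in bulk RNA, and the part of these markers was not tested. Ym1 was first described as an eosinophil chemotactic factor, and markers of eosinophils were looked at for that reason. Of 4 eosinophil markers tested of 5 listed, 0 passed the limma threshold and 0 had an unadjusted p under 0.05, and their summed intensity was 526 to 574 with the inhibitor and 535 to 572 with vehicle. Tested were 4 T cell, 3 B cell, 5 epithelial, 4 stromal and 1 erythroid marker, of 4, 4, 5, 4 and 3 listed. Among them 1 epithelial marker, Krt8, was higher by limma (log2 fold change 0.44) and 0 were lower, against 7.1% of all genes higher.

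The other genes of the chitinase family were called in both directions. Of 5 tested, 1 was higher, 1 was lower and 3 did not pass an adjusted p of 0.05 (limma, Benjamini-Hochberg over all genes), against 13.9% of all genes called, 7.1% higher and 6.75% lower. This list and those below were written with earlier results of these data known, so nothing is read from their shares of calls. Their median log2 fold change was 0.07, against 0.01 over all genes. Chil5, a chitinase-like gene of the chromosome 3 cluster, had a mean intensity of 52.4 ± 3.17 with the inhibitor and 41.1 ± 2.30 with vehicle (SD, n = 3 each). Its log2 fold change was 0.35 ± 0.07 (SE, limma adjusted p = 0.0184). The Chil5 call was lost without vehicle replicate 1, vehicle replicate 2 or inhibitor replicate 1 (adjusted p = 0.0628, 0.0770 and 0.0543). Chid1, which encodes a chitinase-domain protein of lysosomes, was the member called lower. Its intensities were 593, 593 and 570 on the inhibitor arrays, against 683, 685 and 728 on the vehicle arrays, without overlap. The log2 fold change of Chid1 was -0.26 ± 0.05 (SE, limma adjusted p = 0.0208). That call was kept without inhibitor replicate 2 and lost when any other array was left out (adjusted p between 0.0533 and 0.0847), and was lost under median centring (0.0533).

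Ctbs, the lysosomal chitobiase gene, had mean intensities of 263 ± 17.9 with the inhibitor and 232 ± 13.8 with vehicle (SD, n = 3 each), and did not pass (log2 fold change 0.18, 95% interval 0.01 to 0.35). Chia1, the acidic chitinase gene, averaged 59.2 ± 4.46 with the inhibitor and 56.7 ± 10.03 with vehicle, with a log2 fold change of 0.07 (-0.23 to 0.38). Chil6 averaged 32.1 ± 2.89 and 32.1 ± 4.85, with a log2 fold change of 0.01 (-0.29 to 0.31). Chia1 and Chil6 did not pass the threshold. Both are dim, as is Chil5, which was called higher, and whether these genes were above background is not known. Ovgp1 is not analysed here, because its probe set is annotated to several genes.

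**Figure D2:**
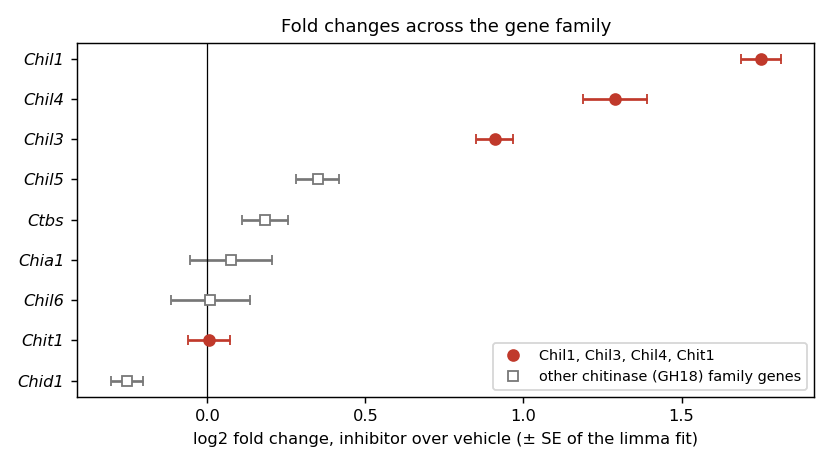
Log2 fold change (inhibitor over vehicle, x axis) with the SE of the limma fit for Chil1, Chil3, Chil4 and Chit1 (red circles) and the 5 other chitinase family genes tested (open squares). Chil1, Chil4 and Chil3 lie between 0.91 and 1.75, the other family genes between -0.26 and 0.35, and Chit1 at 0.0049.

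Neighbouring genes were compared next, since the 4 genes sit in clusters. Of 16 genes, 4 on each side of each pair, 2 were higher, 1 was lower and 13 did not pass (limma), a share of calls near the 13.9% of all genes. The median log2 fold change of these neighbours was 0.08. Btg2, an antiproliferative gene and the nearest measured gene to Chit1 on its outer side, averaged 434 ± 29.6 with the inhibitor and 307 ± 15.0 with vehicle (SD, n = 3 each). The log2 fold change was 0.50 ± 0.07 (SE, limma adjusted p = 0.0056). The other neighbour called higher was Chil5, which is dim. Wdr77, which encodes a partner of the arginine methyltransferase PRMT5 and lies on the side of Chia1 and Chil5, was lower by limma, with a log2 fold change of -0.38 ± 0.05 (SE, adjusted p = 0.00575). Chia1 and Chil6, which flank Chil3 and Chil4 directly, did not pass, and neither did Dennd2d (-0.04) or Tmem183a (-0.08).

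**Figure D3:**
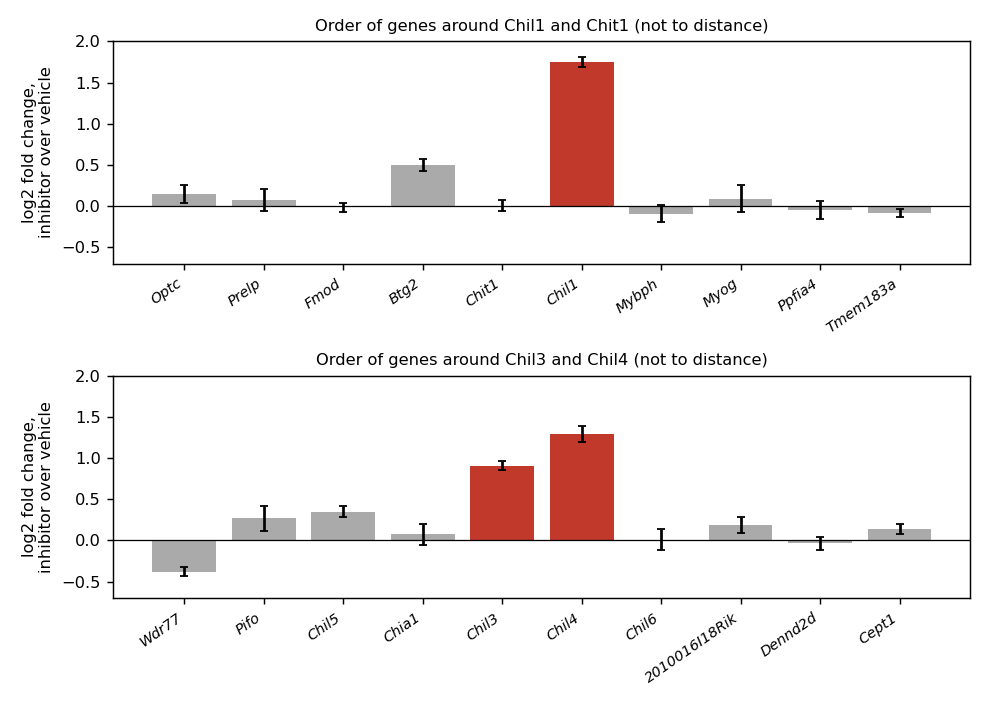
Log2 fold change (inhibitor over vehicle, y axis, bars from 0, with the SE of the limma fit) of Chit1 and Chil1 (top) and Chil3 and Chil4 (bottom) in red, with 4 measured genes on each side in grey, in chromosomal order but not to distance. Chil1 stands at 1.75 beside Chit1 at 0.0049 and Mybph at -0.09, and Chil3 and Chil4 stand at 0.91 and 1.29 between Chia1 at 0.07 and Chil6 at 0.01.

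Genes for proteins reported to bind chitinase-like proteins or to sense chitin were higher in part. The list also holds Il13ra1, for which no such report is given here. Of 12 tested, 7 were higher and 5 did not pass (limma), against 7.1% of all genes higher and 13.9% called in either direction. The list was written with earlier results of these data known, so nothing is read from that share. The median log2 fold change was 0.28 for these genes and 0.01 over all genes. Lgals3, which encodes galectin-3, a reported partner of the human counterpart of BRP-39, averaged 1232 ± 82.4 with the inhibitor and 566 ± 20.2 with vehicle (SD, n = 3 each), and its log2 fold change was 1.12 ± 0.07 (SE). Tlr2, a receptor for bacterial lipoproteins also reported to respond to chitin, rose by 0.98 ± 0.04 on the log2 scale. Il13ra1, a chain of the receptor for interleukins 4 and 13, rose by 0.78 ± 0.06, and Clec7a, the gene of the beta-glucan receptor dectin-1, by 0.63 ± 0.06. The limma adjusted p of Lgals3, Tlr2, Il13ra1 and Clec7a lay between 7.68e-05 and 0.000932. Mrc1, the mannose receptor gene, rose by 0.38 (limma adjusted p = 0.0240). Its call held when inhibitor replicate 1 was left out but not without any of the other 5 arrays (adjusted p between 0.0548 and 0.0882). The means of Mrc1 were 104 with the inhibitor and 79.7 with vehicle. Both lay below the array medians, and whether Mrc1 was above background is not known.

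Il13ra2, Tmem219 and Cd44, all reported receptors or co-receptors of BRP-39 or YKL-40, are named here after their values were seen. Genes named without that remark, here and in the lists below, were picked by a rule that itself used calls, fold changes and levels. Il13ra2, the decoy interleukin-13 receptor gene, averaged 58.2 ± 10.6 with the inhibitor and 58.5 ± 14.4 with vehicle (SD, n = 3 each), and its log2 fold change of 0.01 (95% interval -0.49 to 0.51) did not pass. Like Chit1, it lay below the array medians, and whether it was above background is not known. Tmem219, the gene of its reported co-receptor, rose by 0.23 (limma adjusted p = 0.0196), a call lost without vehicle replicates 1, 2 or 3 or inhibitor replicate 1 (adjusted p between 0.0581 and 0.0855) and under median centring (0.166). Cd44, the hyaluronan receptor gene, rose by 0.34 ± 0.05 (SE, limma adjusted p = 0.00535). Ager (0.09) and Ptgdr2 (0.19) did not pass, although Ptgdr2 passed when the dimmest 25% of genes were left out (adjusted p = 0.0345). Fibcd1 (-0.02) and Sdc1 (0.09), also named after their values were seen, did not pass either.

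Enzymes that handle N-acetylglucosamine, the unit of chitin, were the next group. Of 7 tested, 4 were higher and 3 did not pass (limma), against 7.1% of all genes higher. Earlier results were known when these enzymes were listed, so nothing is read from that share. Their median log2 fold change was 0.30, beside 0.01 over all genes. Nagk, the N-acetylglucosamine kinase gene, had intensities of 645, 681 and 713 on the inhibitor arrays, against 455, 479 and 478 on the vehicle arrays, without overlap. Its log2 fold change was 0.53 ± 0.06 (SE, limma adjusted p = 0.00216). Naglu, a lysosomal alpha-N-acetylglucosaminidase gene, rose by 0.37 ± 0.05 (adjusted p = 0.00692). Hexa, which encodes the alpha subunit of lysosomal hexosaminidase, rose by 0.30 and Oga, the gene of the enzyme that removes N-acetylglucosamine from proteins, by 0.20 (limma adjusted p = 0.0484 and 0.0413). The Hexa call was lost whichever array was left out (adjusted p between 0.0542 and 0.149), and the Oga call when any array but inhibitor replicate 2 was left out (0.0935 to 0.138). Centring of arrays on their medians also ended the calls of Hexa and Oga (0.0863 and 0.253), and a floor of 1 ended that of Hexa (0.0509). Amdhd2 (0.10) and Renbp (0.30, adjusted p = 0.0640) did not pass. Renbp passed without inhibitor replicate 3 (0.0134), with log2 of the value plus 16 (0.0469), with the dimmest 25% of genes left out (0.0366) and with an intensity trend and robust prior (0.00531).

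Ym1 is commonly measured together with other genes of alternative activation. Of 15 tested, 3 were higher, 0 were lower and 12 did not pass (limma), against 7.1% of all genes higher and 13.9% called in either direction. Earlier results were known when these genes were listed, so nothing is read from that share. Their median log2 fold change was 0.12, against 0.01 over all genes. Irf4, a transcription factor gene of that programme, rose by 0.54 ± 0.08 (SE, adjusted p = 0.0069), and averaged 123 ± 8.12 with the inhibitor and 84.4 ± 6.65 with vehicle (SD, n = 3 each). The vehicle mean of Irf4 lay below the array medians, and whether it was above background is not known. Tgm2, the tissue transglutaminase gene, rose by 0.34 ± 0.05 (adjusted p = 0.00812), and Mrc1 by 0.38 as above. Mgl2 (-0.11) and Il4ra (0.15), the members of highest intensity that did not pass, encode a galactose-binding lectin and the interleukin-4 receptor alpha chain. Arg1 (arginase 1) and Retnla (Fizz1), the genes most often paired with Ym1, are named after their values were seen. Arg1 averaged 115 ± 11.9 with the inhibitor and 113 ± 4.42 with vehicle, near the array medians, and its log2 fold change of 0.02 (95% interval -0.18 to 0.22) did not pass. For Retnla the means were 53.3 ± 7.45 and 58.8 ± 6.47, and the log2 fold change of -0.15 (-0.44 to 0.15) did not pass, at intensities below the array medians.

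Among 14 transcription factor genes reported upstream of chitinase-like or macrophage lysosomal genes, 5 were higher, 1 was lower and 8 did not pass (limma), against 7.1% of all genes higher and 6.75% lower. Earlier results were known when these factors were listed, so nothing is read from those shares. Their median log2 fold change was 0.16, beside 0.01 over all genes. Irf8, a monocyte factor gene, rose by 0.68 ± 0.06 (SE, adjusted p = 0.000762). Mitf rose by 0.50 ± 0.06 and Tfe3 by 0.37 ± 0.06 on the log2 scale (limma adjusted p = 0.0034 and 0.00889), and both encode MiT/TFE factors that drive lysosomal genes. When both Mitf probe sets were averaged its value was 0.25 (adjusted p = 0.0185), as its other probe set lay below the floor of 16 on all 6 arrays. The related gene Tfeb rose by 0.32 (adjusted p = 0.0153), a call lost without vehicle replicates 1 or 3 or inhibitor replicate 1 (0.0538, 0.0671 and 0.0654) and under median centring (0.0658). Gfi1, a repressor gene of the granulocyte lineage, fell by 0.34 (SE 0.05, limma adjusted p = 0.00759). Spi1 (0.14) and Stat6 (0.18) did not pass, and both passed with an intensity trend and robust prior (0.00869 and 0.00577).

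The C/EBP genes and Rela are named after their values were seen. Cebpe, which encodes the factor of late granulocyte maturation that is reported to act on Chil3, averaged 1067 ± 49.0 with the inhibitor and 1071 ± 16.9 with vehicle (SD, n = 3 each), and its log2 fold change of -0.01 (95% interval -0.13 to 0.12) did not pass. Cebpb (0.29, limma adjusted p = 0.0764) did not pass either, but passed with the dimmest 25% of genes left out (0.0449) and with an intensity trend and robust prior (0.0104). Cebpd rose by 0.25 (adjusted p = 0.0272), a call lost without vehicle replicates 1 or 3 or inhibitor replicates 1 or 3 (0.0741 to 0.106) and under median centring (0.147). Rela, the gene of the NF-kB subunit p65, had a log2 fold change of 0.04 (-0.13 to 0.21) and did not pass.

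**Figure D4:**
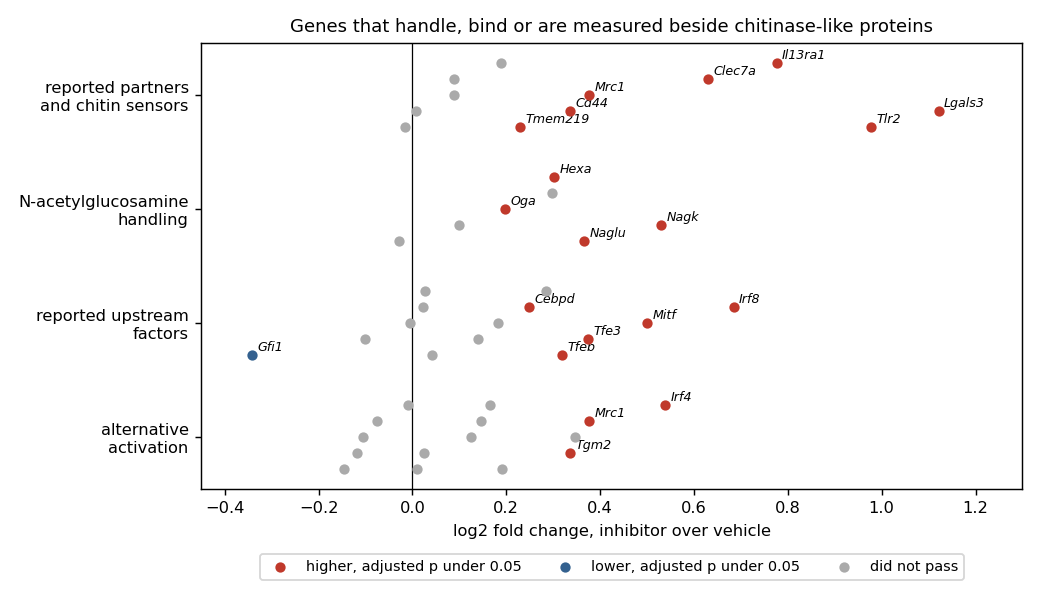
Log2 fold change (inhibitor over vehicle, x axis) of each tested gene in 4 lists, with genes past an adjusted p of 0.05 by limma in red (higher) or blue (lower) and named, and the others in grey. The list of partners and sensors holds 7 red points of 12, up to Lgals3 at 1.12, and the list of alternative activation 3 of 15, up to Irf4 at 0.54.

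For a listing of likeness, genes with predicted or clone-type names were first left out. Likeness was measured as the root mean square difference of log2 values set to the vehicle mean. The genes whose values over the 6 arrays were most like each of the 4 were then listed. For Chil1 they were C3ar1, a complement receptor gene (difference 0.04, log2 fold change 1.75), Gpnmb, a lysosomal glycoprotein gene (0.05 and 1.78), and Plekhg1 (0.05 and 1.75). For Chil3 they were Cd52 (0.04 and 0.87), the cytokine gene Il15 (0.05 and 0.87) and Rnf149 (0.06 and 0.89). Chil4 lay closest to the immunoglobulin-like receptor genes Lilrb4a (0.09 and 1.33) and Pirb (0.10 and 1.34) and to the kinase gene Wnk3 (0.11 and 1.16). The differences of Chil4 were larger, as was its spread within groups. Chit1 lay closest to Ptprk, Fbln2 and Gdpd3 (0.02 each), with log2 fold changes of 0.01 or less in size. These likenesses describe 6 arrays in 2 groups and carry no test.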

How the data were processed

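RNA was read on 6 Affymetrix whole-transcript arrays, per the labels' protocols. The deposited values are intensities that came from Affymetrix Expression Console, as the submitters' processing notes say. The version, summarization algorithm and any normalization between arrays are not stated there. Values ran from 0.71 to 8186 on a linear scale, with array medians of 112 to 124, and correlations of log2 values were 0.993 to 0.997 within groups and 0.988 to 0.991 between groups. The number of arrays limits the precision.

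Of 35512 probe sets, 21789 had 1 gene symbol in the platform annotation, 1621 had several and 12102 were unnamed here. Symbols were updated through Entrez numbers (21698 matched) to GRCm38.p6 RefSeq names. The brightest probe set stood for a gene. Values below 16 (5.94%) were set to 16 before log2, which understates changes of dim genes, and 91 genes at that floor on all arrays were left out. The design had allowed for log2 values; the linear table needed the floor. Groups were taken from the treatment label and replicate numbers from the titles, and the fit was made with limma 3.58.1 under R 4.3.3 (2-sided, no covariates, Benjamini-Hochberg over 19847 genes, adjusted p under 0.05), after a test on simulated data. Means and SD are of deposited intensities.

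The 4 genes and all lists were chosen with earlier results of these data known. Named were the 4 genes, all chitinase family genes, up to 5 called and 2 uncalled genes a list, and the 3 most alike; others are said to be named later. Promoters were aligned with Biopython 1.88, and motif letters were settled after the windows had been read. Same-numbered arrays did not deviate together in every pair (correlations 0.24, 0.13 and -0.09). Whether replicate numbers pair samples is not known, and the main fit did not use them as pairs. Alternatives were the replicate block, scalings, floors, a filter on dim genes, probe set means, a variance trend and leaving out each array.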

Additional observations from a re-analysis of the deposited data

How the results depend on the processing

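Under the 13 alternatives run for the 4 genes the log2 fold changes were 1.69 to 1.79 for Chil1 and 0.87 to 0.95 for Chil3. They were 1.19 to 1.39 for Chil4 and -0.04 to 0.06 for Chit1. The replicate block, floors of 32 and 1 and probe set means could not change these values. The design is balanced, and each gene has 1 probe set with values above 32. Leaving out 1 array can only move them by less than the spread between replicates. Quantile normalization, median centring and log2 of the value plus 16 could have moved them further, and did not exceed that spread. Counts of calls were less stable. With a replicate block, 1679 genes were called in place of 2749 (998 higher and 681 lower), with 1 in the chitinase family, Chil5, and 2 among N-acetylglucosamine enzymes; it ended the calls of Chid1, Hexa, Oga, Tmem219 and Cebpd. Median centring gave 1842 calls (890 higher, 952 lower), 1 in the family and 2 among these enzymes. With the dimmest 25% of genes left out the family had 1 call, Chid1, because Chil5 was not tested. An intensity trend with a robust prior called 4199 (1979 higher, 2220 lower). Leaving out 1 array gave 1183 to 2810 calls, 0 to 2 in the family, 2 to 3 among N-acetylglucosamine enzymes, 5 to 6 among partners and sensors, 2 to 4 in alternative activation, 4 to 6 among upstream factors and 2 to 3 among neighbours. Calls fell to 1567, 1183 and 1219 without vehicle replicates 1, 2 and 3 and to 1273 without inhibitor replicate 1; the family had none without vehicle replicates 1 or 2 or inhibitor replicate 1. Fewer arrays were fitted there; otherwise the cause was not tested. Without detection calls, signal over background is unknown, which limits the dim genes Chit1, Chia1, Chil5, Chil6, Il13ra2 and Retnla, among others below the array medians.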
